A study of Mus musculus with 6 samples.

Results

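Animal cells hold their volume by moving salt and water and by gathering small organic solutes, the osmolytes. In hypertonic medium the transcription factor NFAT5 switches on genes that import or make osmolytes such as myo-inositol, taurine, betaine and sorbitol, while chloride cotransporters, a volume-regulated anion channel and aquaporins move ions and water. Trimethylamine N-oxide (TMAO), made in the liver from trimethylamine that gut bacteria release, is itself an osmolyte that stabilises proteins in marine animals. The 10 genes described here were chosen by name from this system, with earlier results of these data known, out of 25939 genes listed. They are the regulator Nfat5, the kinase Sgk1, the osmolyte transporters Slc5a3, Slc6a6, Slc6a12 and Slc38a2, the sorbitol-making enzyme Akr1b3, the water channel Aqp1, the anion channel subunit Lrrc8a and the cotransporter Slc12a2.

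The series set vascular smooth muscle cells, isolated from mouse aorta and cultured, with TMAO for 48 h beside cells with control treatment, with 3 RNA sequencing libraries a group. The sources used here give neither the TMAO dose nor the strain and age of the mice. They do not say whether the 3 libraries of a group came from separate animals or cultures, so the p-values describe the spread of these libraries only, and that spread may be technical. Levels are in FPKM, which scales fragment counts to exon length and depth, and implied library totals ran from 14991252 to 16806728 reads. Of 9 smooth muscle markers, 5 had means of at least 1 FPKM: Acta2, smooth muscle actin, at 487 FPKM in Control, Myl9 at 99.1 FPKM, and Smtn, Lmod1 and Des at lower levels. The contractile markers Tagln, Cnn1, Myh11 and Mylk had means under 1 FPKM. Fibroblast markers (Pdgfra, Dcn, Lum and Dpt, 4 of 5) and macrophage markers (Lyz2 and Cd68, 2 of 5) also had means of at least 1 FPKM, with Pdgfra at 26.5 FPKM and Lyz2 at 76.9 FPKM in Control. The other macrophage markers, Ptprc, Adgre1 and Csf1r, were lower, at 0.0399, 0.510 and 0.821 FPKM in Control. The fibroblast marker Pi16 was at 0.102 FPKM in Control. Fewer cells of a type and less RNA per cell cannot be told apart in such bulk samples.

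None of the osmoregulatory genes passed the test. With limma on log2(FPKM + 1), 0 of the 9 tested members had an adjusted p under 0.05, against 0.181% of the 11062 genes tested, 0.0723% higher and 0.108% lower. Those 20 genes over the whole table (8 higher, 12 lower) became 7 higher and 18 lower under quantile normalization, and the total was 11 without Control replicate 3, 13 without TMAO replicate 1 and 58 without TMAO replicate 2. At an unadjusted p under 0.05 there were 5 of 9 members, where 13.1% of all tested genes lay, and limma with voom weights on recovered reads also called 0 members. In 4 of the 9 the groups did not overlap, where 18.7% of all tested genes were separated. Nfat5 and Sgk1 lay above in all TMAO libraries (12.4% of all tested genes) and Slc5a3 and Aqp1 below (6.23%). The log2 fold change was above 0 for 4 of 9 members and for 60% of all tested genes, with a median of -0.04 over the members and 0.03 over all. That share depends on the scaling: under quantile normalization 3 of 9 members and 49% of all tested genes were above 0, with median-ratio size factors 4 of 9 and 50.5%, and with length and GC trends removed 4 of 9 and 48.6%. Slc6a12, the remaining member, fell short of the filter of 1 FPKM in 3 libraries.

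**Figure D1:**
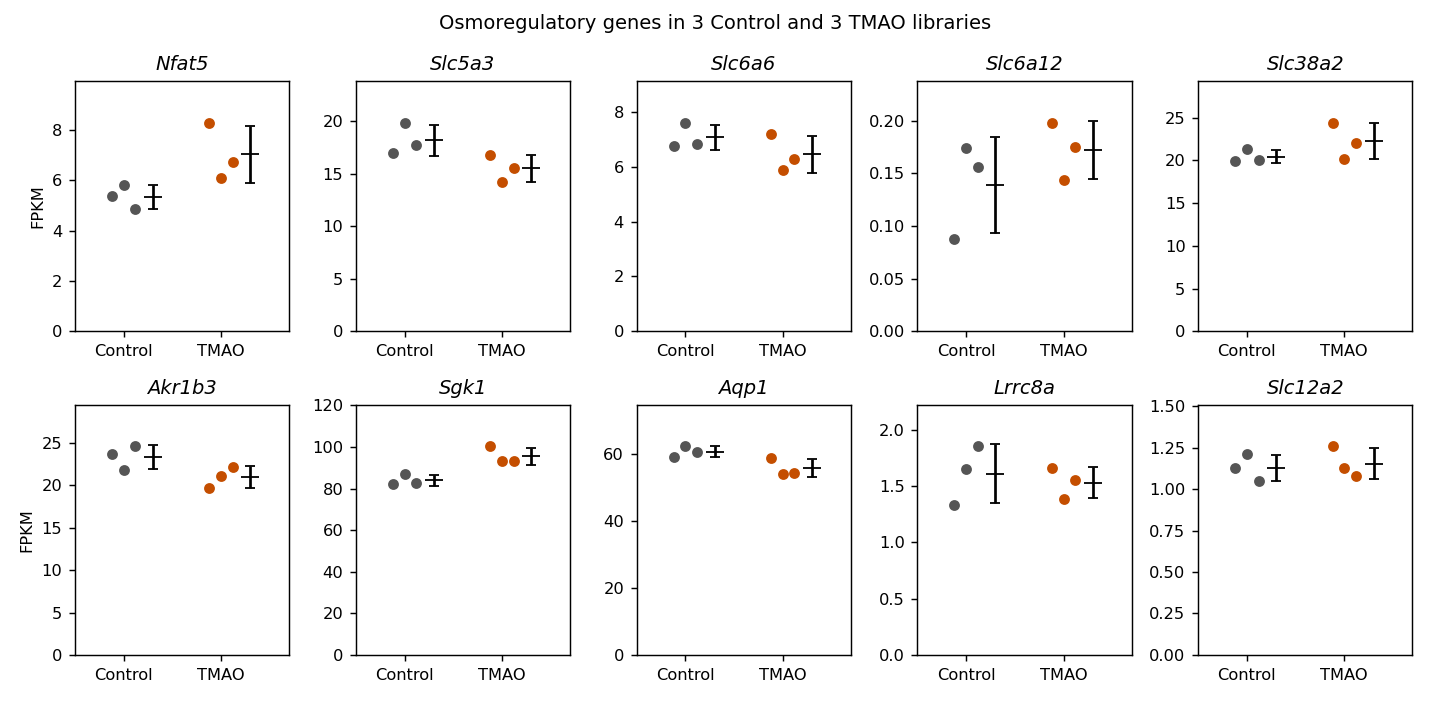
Level of each of the 10 genes in FPKM (vertical axes, each from 0) in the 3 Control (grey) and 3 TMAO (orange) libraries, with points for libraries 1 to 3 from left to right and the mean ± SD in black. Nfat5 and Sgk1 have all TMAO points above the Control points, Slc5a3 and Aqp1 have them below, and the groups overlap for the other 6 genes.

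Promoter windows from RefSeq (GRCm38.p6, 250 bases before and 50 from each annotated start) matched 7 of the 10 genes in 16 windows. Slc6a6, Akr1b3 and Slc12a2 had no entry. Both strands were searched for the consensus of the tonicity-responsive enhancer, the site NFAT5 binds, for its core TGGAAA, which lies inside the consensus, and for the palindromic glucocorticoid response element, AGAACA and TGTTCT with 3 bases of any kind between. The consensus occurred in 4.96% of 32851 windows of this length, the core in 21.4% and the glucocorticoid element in 0.00913%. Among members, 1 of 5 Slc6a12 windows held the consensus, 2 of 6 Sgk1 windows held the core without the consensus, and 1 of 6 Sgk1 windows held the glucocorticoid element. The windows of Nfat5, Slc5a3, Slc38a2, Aqp1 and Lrrc8a held none of these letters. A match is a description of the letters and not a bound site. Stretches from 3 genes are printed, with no annotated exon in any of them. The one upstream of both Slc5a3 and Mrps6 (chr16:92058072-92058269, plus strand) is shown because these genes start side by side. The one upstream of Slc6a12 (chr6:121342439-121342570, plus strand) holds the enhancer consensus, in capitals, beginning 75 bases before a RefSeq start at 121342574. The gene start in the annotation used for the levels lies farther downstream, at 121343076. The one from Sgk1 (chr10:21993641-21993776, plus strand) holds the glucocorticoid element, in capitals, beginning 189 bases before a RefSeq start at 21993890, which lies within the annotated gene.
Slc5a3 and Mrps6: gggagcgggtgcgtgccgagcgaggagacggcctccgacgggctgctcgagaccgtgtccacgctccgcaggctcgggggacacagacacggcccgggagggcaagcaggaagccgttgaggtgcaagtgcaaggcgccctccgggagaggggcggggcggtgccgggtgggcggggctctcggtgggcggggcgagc
Slc6a12: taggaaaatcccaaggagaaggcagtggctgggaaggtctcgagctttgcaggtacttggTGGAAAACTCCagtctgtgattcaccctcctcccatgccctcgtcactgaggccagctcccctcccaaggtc
Sgk1: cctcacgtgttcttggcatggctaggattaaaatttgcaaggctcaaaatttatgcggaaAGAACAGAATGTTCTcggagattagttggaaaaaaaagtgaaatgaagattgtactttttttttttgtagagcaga

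Nfat5, the transcription factor of the hypertonic response (ENSMUSG00000003847, mm10 chromosome 8, 107293470 to 107379517, plus strand), stood at 5.36, 5.80 and 4.87 FPKM in Control 1 to 3 and at 8.30, 6.10 and 6.73 FPKM in TMAO 1 to 3. All TMAO libraries lay above all Control libraries, with TMAO 1 well apart from the other two. The means were 5.34 ± 0.468 FPKM (SD, n = 3) in Control and 7.04 ± 1.13 FPKM in TMAO, a difference of 31.8%. On the scale of the test the log2 fold change was 0.34 ± 0.101 (SE; adjusted p = 0.210 by limma), with a 95% interval from 1.08-fold to 1.47-fold. It had the largest change in size of the 9 tested members, and without TMAO replicate 1 the log2 fold change was 0.23 (adjusted p = 0.349 by limma).

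Some long nuclear RNAs stood higher in the same libraries. Of a list of 5 such RNAs, 3 were tested and none passed. All 3 had every TMAO library above every Control library, where 12.4% of all tested genes did. Malat1, which stays in nuclear speckles, was at 2.40, 1.69 and 2.02 times its Control mean in TMAO 1 to 3, and Neat1, the scaffold of paraspeckles, at 1.98, 1.16 and 1.71 times. Nfat5 was at 1.55, 1.14 and 1.26 times, so the TMAO libraries had the same order for these 3 RNAs. That order was not particular to them. It also held for Slc5a3, Slc6a6, Slc6a12, Slc38a2, Aqp1 and Lrrc8a, and not for Akr1b3, Sgk1 and Slc12a2. Of all tested genes, 50.7% were highest in TMAO 1 among the TMAO libraries and 45.9% were lowest in TMAO 2. The adjusted p by limma was 0.196 for Malat1 and 0.231 for Neat1. Xist, which coats the inactive X chromosome, averaged 13.5 ± 1.49 FPKM under Control and 25.7 ± 4.49 FPKM under TMAO (limma, log2 fold change 0.87, adjusted p = 0.0798). The imprinted RNAs Meg3 and Kcnq1ot1 were below the filter and overlapped between groups, Meg3 with 0.398 ± 0.139 and 0.342 ± 0.0600 FPKM and Kcnq1ot1 with 0.152 ± 0.0389 and 0.171 ± 0.0295 FPKM. The groups also differed over whole libraries. Mitochondrial genes held 7.39% to 7.96% of the recovered reads in Control and 6.47% to 6.76% in TMAO. Genes above 0 FPKM numbered 19299 to 19966 in Control and 20349 to 20844 in TMAO. The part of nuclear RNA, or of these library differences, in the Nfat5 values was not tested.

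**Figure D2:**
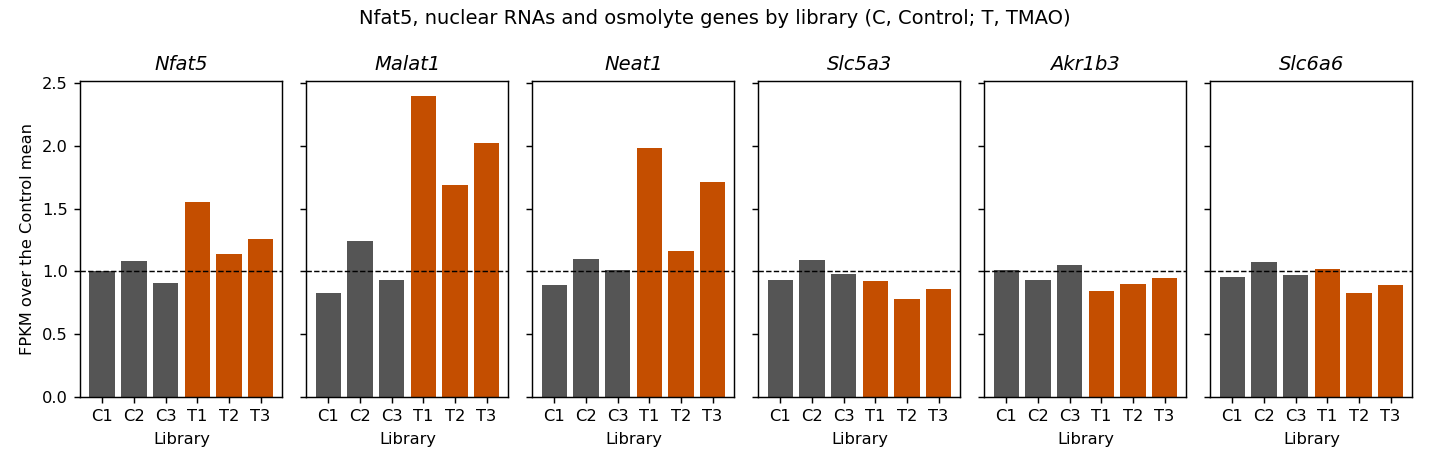
FPKM of each library over the Control mean of the same gene (vertical axis, from 0; dashed line at 1) for Nfat5, the nuclear RNAs Malat1 and Neat1 and the osmolyte genes Slc5a3, Akr1b3 and Slc6a6. TMAO 1 (T1) is the highest bar for Nfat5, Malat1 and Neat1, at 1.55, 2.40 and 1.98. The bars of the osmolyte genes lie between 0.78 and 1.09. Among TMAO bars, T1 is also the highest for Slc5a3 (0.92) and Slc6a6 (1.02) and the lowest for Akr1b3 (0.84).

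The other NFAT factors answer to calcium through calcineurin. Nfatc4 averaged 2.96 ± 0.373 FPKM under Control and 3.56 ± 0.239 FPKM under TMAO without overlap (limma, log2 fold change 0.21, adjusted p = 0.362). Nfatc1 and Nfatc3 had log2 fold changes of 0.08 and -0.04 with overlapping groups, and Nfatc2, with a Control mean of 0.0180 FPKM, was not tested. Nfat5 made up 37.5% ± 1.86 of the summed FPKM of the 5 factors in Control and 42.5% ± 2.09 in TMAO (two-sided exact permutation p = 0.1, the smallest that 3 against 3 allows).

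Sgk1, a kinase that keeps ion channels and transporters at the membrane and is induced by glucocorticoid, serum and cell shrinkage (ENSMUSG00000019970, chromosome 10, 21882184 to 21999903, plus strand), had the highest level of the 10 genes. It stood at 82.2, 87.2 and 82.6 FPKM in Control 1 to 3 and at 100.3, 93.2 and 93.0 FPKM in TMAO 1 to 3. All TMAO libraries lay above all Control libraries. The means were 84.0 ± 2.77 and 95.5 ± 4.13 FPKM, a difference of 13.7%, with a log2 fold change of 0.18 ± 0.0471 (adjusted p = 0.155 by limma, 95% interval 1.06-fold to 1.22-fold). This was the lowest adjusted p of the 9 members, and the lowest over 16 alternatives for Sgk1 was 0.0613, from limma with voom weights.

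Sgk1 held 99.7% of the summed FPKM of the 3 Sgk kinases in both groups, with Sgk3 at 0.241 FPKM and Sgk2 at 0.00581 FPKM in Control. Of the 7 tested genes in the list of Sgk relatives, substrates and glucocorticoid-induced genes, none passed and 3 had all TMAO libraries above all Control libraries, where 12.4% of all tested genes did. The first, Zbtb16, a zinc finger transcription factor, averaged 4.61 ± 0.471 FPKM under Control and 5.74 ± 0.678 FPKM under TMAO (limma, log2 fold change 0.26, adjusted p = 0.259). The clock gene Per1 averaged 2.55 ± 0.205 and 3.13 ± 0.250 FPKM (limma, log2 fold change 0.22, adjusted p = 0.297). Tsc22d3, which codes for the glucocorticoid-induced leucine zipper, averaged 24.3 ± 1.27 and 26.6 ± 0.188 FPKM (limma, log2 fold change 0.13, adjusted p = 0.337). Fkbp5 and Klf9, also induced by glucocorticoids, overlapped between groups, with log2 fold changes of 0.02 and -0.02. The glucocorticoid element printed above for Sgk1 was found in 3 of the 32851 promoter windows.

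Slc5a3, the sodium-coupled importer of myo-inositol and a known NFAT5 target (ENSMUSG00000089774, chromosome 16, 92058322 to 92087473, plus strand), stood at 16.9, 19.8 and 17.7 FPKM in Control 1 to 3 and at 16.8, 14.2 and 15.6 FPKM in TMAO 1 to 3. The highest TMAO library lay just under the lowest Control library. The means were 18.2 ± 1.5 and 15.5 ± 1.3 FPKM, a difference of -14.6%, with a log2 fold change of -0.22 ± 0.0742 (adjusted p = 0.256 by limma, 95% interval 0.769-fold to 0.965-fold). Its share of the summed FPKM of 5 organic osmolyte transporters was 36.4% ± 0.677 in Control and 33.8% ± 1.06 in TMAO (two-sided exact permutation p = 0.1, the smallest possible).

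Slc5a3 lies within the gene of the mitochondrial ribosomal protein Mrps6 on the same strand, and their annotated starts are 52 bases apart, just after the first stretch printed above. The exons share 159 bases, 1.5% of the exon bases of Slc5a3, and how reads there were assigned is not known. Mrps6 averaged 51.1 ± 2.47 FPKM under Control and 46.9 ± 2.27 FPKM under TMAO with overlapping groups (limma, log2 fold change -0.12, adjusted p = 0.368). The ratio of Slc5a3 to Mrps6 within a library was 0.356 ± 0.0303 in Control and 0.332 ± 0.0428 in TMAO, a difference within the spread (two-sided exact permutation p = 0.5).

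Slc6a6, the taurine transporter (ENSMUSG00000030096, chromosome 6, 91684053 to 91759066, plus strand), stood at 6.76, 7.61 and 6.85 FPKM in Control 1 to 3 and at 7.20, 5.87 and 6.29 FPKM in TMAO 1 to 3. TMAO 1 lay within the Control range and the other TMAO libraries below it. The log2 fold change was -0.12 ± 0.0798 (adjusted p = 0.581 by limma, 95% interval 0.816-fold to 1.04-fold). It ran from -0.19 without TMAO replicate 1 to -0.06 without TMAO replicate 2, and was -0.07 without Control replicate 2.

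Slc6a12, the betaine and GABA transporter (ENSMUSG00000030109, chromosome 6, 121343076 to 121365775, plus strand), had the lowest level of the 10 genes. It stood at 0.0873, 0.174 and 0.156 FPKM in Control 1 to 3 and at 0.198, 0.144 and 0.175 FPKM in TMAO 1 to 3, from 4 to 10 reads a library. The groups overlapped, and the difference of 0.0332 FPKM between means lay within their spread (two-sided exact permutation p = 0.4). A difference between groups was not detectable with so few reads and with this permutation test, whose smallest possible p is 0.1.

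Slc38a2, the system A importer of neutral amino acids (ENSMUSG00000022462, chromosome 15, 96687392 to 96699730, minus strand), stood at 19.9, 21.4 and 20.1 FPKM in Control 1 to 3 and at 24.4, 20.2 and 22.1 FPKM in TMAO 1 to 3. TMAO 2 lay within the Control range and the other TMAO libraries above it. The log2 fold change was 0.11 ± 0.0676 (adjusted p = 0.534 by limma, 95% interval 0.974-fold to 1.2-fold). It was 0.04 without TMAO replicate 1 and 0.17 without TMAO replicate 2.

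The factor ATF4 also drives Slc38a2 when amino acids run short. In the list of system A and amino acid response genes 0 of 8 tested genes passed, and 4 had all TMAO libraries above all Control libraries, where 12.4% of all tested genes did. Log2 fold changes were above 0 for 8 of 8 (60% of all tested genes), for 6 of 8 under quantile normalization (49%) and for 7 of 8 with median-ratio size factors (50.5%). The list had a median of 0.08 beside 0.03 over all tested genes. Asns, asparagine synthetase, averaged 118 ± 2.17 FPKM under Control and 130.1 ± 1.94 FPKM under TMAO (limma, log2 fold change 0.14, adjusted p = 0.206). Ddit3, a stress factor downstream of ATF4, had a log2 fold change of 0.18 (adjusted p = 0.282 by limma), Atf4 itself 0.10 (0.353) and the ATF4 target Trib3 0.07 (0.658). The other system A genes, Slc38a1 and Slc38a4, had 0.02 and 0.01.

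Akr1b3, aldose reductase, which turns glucose into sorbitol (ENSMUSG00000001642, chromosome 6, 34302434 to 34317478, minus strand), stood at 23.7, 21.8 and 24.6 FPKM in Control 1 to 3 and at 19.7, 21.1 and 22.2 FPKM in TMAO 1 to 3. The groups overlapped, since TMAO 3 exceeded Control 2. The log2 fold change was -0.15 ± 0.0619 (adjusted p = 0.344 by limma, 95% interval 0.820-fold to 0.992-fold). Its relatives Akr1a1, Akr1b8 and Akr1b10 averaged 141, 100.5 and 8.25 FPKM in Control, with log2 fold changes of 0.03, -0.03 and 0.08. Whether reads were shared among any of these genes was not tested, so their split is uncertain. Sord, which oxidises sorbitol to fructose, averaged 17.0 ± 0.303 FPKM under Control and 18.5 ± 0.290 FPKM under TMAO without overlap (limma, log2 fold change 0.11, adjusted p = 0.369).

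The list of other osmolyte genes had 17 names, of which 15 were in the tables and 11 were tested. None passed, 6 had a log2 fold change above 0 and 5 below, or 5 and 6 under quantile normalization. Isyna1, which makes myo-inositol from glucose phosphate and so feeds the same pool as Slc5a3, stood at 14.4, 18.3 and 15.9 FPKM in Control 1 to 3 and at 13.1, 11.1 and 10.9 FPKM in TMAO 1 to 3. All TMAO libraries lay below all Control libraries. Its log2 fold change was -0.44 ± 0.0929 (adjusted p = 0.115 by limma). It passed as lower in 3 of 16 alternatives, namely a filter of 50 reads on the mean (adjusted p = 0.0398 by limma), voom weights (0.0233) and removal of length and GC trends (0.0370), and its adjusted p was at most 0.428. Hspa1b, an inducible heat shock protein gene and NFAT5 target, averaged 3.83 ± 0.662 and 2.85 ± 0.319 FPKM (limma, log2 fold change -0.32, adjusted p = 0.243), and its reads can be shared with the near-identical Hspa1a. Cdo1, on the route from cysteine to taurine, and Slc6a8, the creatine transporter, had log2 fold changes of 0.03 and -0.04.

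**Figure D3:**
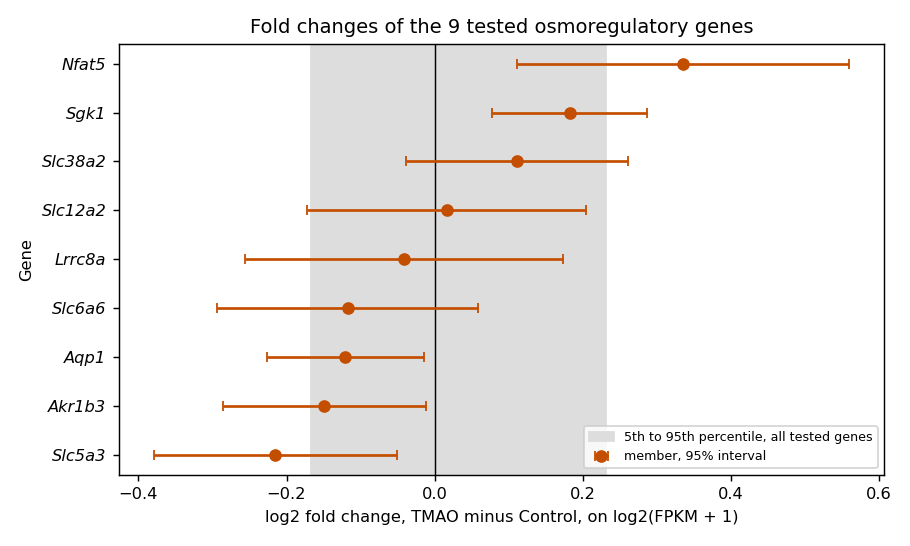
Log2 fold change of TMAO against Control on log2(FPKM + 1) (horizontal axis) for the 9 tested genes, as points with 95% intervals from limma, over a grey band from the 5th to the 95th percentile of all tested genes, -0.17 to 0.23. Nfat5 at 0.34 and Slc5a3 at -0.22 lie outside the band, and the intervals of Slc38a2, Slc12a2, Lrrc8a and Slc6a6 include 0.

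Aqp1, a water channel of endothelium, red cells and smooth muscle (ENSMUSG00000004655, chromosome 6, 55336432 to 55348555, plus strand), stood at 58.9, 62.2 and 60.6 FPKM in Control 1 to 3 and at 58.7, 54.0 and 54.2 FPKM in TMAO 1 to 3. The TMAO libraries lay below the Control libraries, though TMAO 1 and Control 1 nearly met. The means were 60.6 ± 1.61 and 55.6 ± 2.63 FPKM, with a log2 fold change of -0.12 ± 0.0481 (adjusted p = 0.320 by limma, 95% interval 0.854-fold to 0.990-fold). Aqp1 held 98.2% of the summed FPKM of 10 aquaporins in Control and 98.7% in TMAO. The other 9, led by Aqp5, did not reach the filter. Aqp5 averaged 0.476 FPKM in Control and 0.303 FPKM in TMAO, from 10 to 21 reads a library. All its TMAO libraries lay below all Control libraries, where 6.23% of all tested genes did.

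Among markers of the other cell types that carry Aqp1, 6 of 7 endothelial genes were in the tables and 1 of them, Emcn, had a mean of at least 1 FPKM. Their summed level, mostly Emcn, ran from 15.5 to 16.8 FPKM in Control and from 12.5 to 13.1 FPKM in TMAO. Emcn, endomucin, averaged 15.8 ± 0.685 FPKM under Control and 12.3 ± 0.192 FPKM under TMAO (limma, log2 fold change -0.33, adjusted p = 0.0504). Pecam1 and Cdh5, adhesion molecules that define endothelium, were at 0.0519 and 0.0242 FPKM in Control and at 0.0717 and 0.0344 FPKM in TMAO. From Control to TMAO the mean of Tek went from 0.1225 to 0.1845 FPKM. Kdr went from 0.1651 to 0.145 FPKM and Vwf from 0.0424 to 0.0333 FPKM. All of these except Emcn overlapped between groups and were too low to be tested. Mesothelial markers summed to 4.84 to 5.30 FPKM in Control and 4.18 to 5.56 FPKM in TMAO, mostly Msln. The part of Emcn-expressing cells in the Aqp1 values was not tested.

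Lrrc8a is the subunit that the volume-regulated anion channel, the path by which swollen cells release chloride, taurine and other osmolytes, cannot do without (ENSMUSG00000007476, chromosome 2, 30237715 to 30263790, plus strand). It stood at 1.33, 1.65 and 1.85 FPKM in Control 1 to 3 and at 1.66, 1.38 and 1.55 FPKM in TMAO 1 to 3. The groups overlapped, with the lowest and the highest library both in Control. The log2 fold change was -0.04 ± 0.0967 (adjusted p = 0.901 by limma, 95% interval 0.838-fold to 1.13-fold), and it was above 0 without Control replicate 3 and without TMAO replicate 2. The gene Gm28035 on the same strand covers 66.2% of its exon bases and itself averaged 0.00476 FPKM over the 6 libraries. How reads on the shared bases were assigned is not known. The level of Lrrc8a, and its share and rank beside other genes, is therefore uncertain. The partner subunits Lrrc8c, Lrrc8b and Lrrc8d averaged 6.18, 1.56 and 1.14 FPKM in Control, with log2 fold changes of 0.03, 0.02 and 0.02 that were all below 0 under quantile normalization. Lrrc8e, at 0.181 FPKM, was not tested. Lrrc8a made up 15.1% ± 2.66 of the summed FPKM of the 5 subunits in Control and 14.1% ± 0.853 in TMAO (two-sided exact permutation p = 0.7).

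Slc12a2, the NKCC1 cotransporter that loads sodium, potassium and chloride into shrunken cells (ENSMUSG00000024597), stood at 1.13, 1.21 and 1.05 FPKM in Control 1 to 3 and at 1.26, 1.13 and 1.08 FPKM in TMAO 1 to 3. The groups overlapped. The log2 fold change was 0.02 ± 0.0854 (adjusted p = 0.959 by limma, 95% interval 0.887-fold to 1.15-fold), and it was below 0 under quantile normalization, without Control replicate 3 and without TMAO replicate 1. Slc12a4, a cotransporter that carries potassium and chloride out of swollen cells, averaged 6.13 FPKM in Control, with a log2 fold change of 0.08. Of the 6 tested genes of this list 0 passed and all 6 overlapped between groups. Wnk1, a chloride-sensing kinase, had a log2 fold change of 0.05, the kinases Stk39 and Oxsr1, which phosphorylate the cotransporters, 0.04 and -0.05, and their scaffold Cab39 0.0034.

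The exchangers, pump subunits and osmosensitive channels had 8 tested genes. None passed, 6 had a log2 fold change below 0 where 60% of all tested genes were above, and 2 did not overlap (18.7% of all tested genes), among them Atp1b1. Atp1b1, a beta subunit that brings the sodium pump to the membrane, averaged 13.0 ± 0.562 FPKM under Control and 11.1 ± 0.320 FPKM under TMAO (limma, log2 fold change -0.22, adjusted p = 0.164). The more abundant beta subunit Atp1b3 averaged 146.3 ± 3.63 and 145.6 ± 1.18 FPKM (limma, log2 fold change -0.0064, adjusted p = 0.967). Clns1a and the channel kinase Trpm7 had log2 fold changes of 0.02 and 0.07. Trpv4, a swelling-sensitive channel at 0.219 FPKM in Control, was not tested.

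Over all 49 tested companion genes 0 passed with limma, 12 had an unadjusted p under 0.05 (13.1% of all tested genes), and 14 did not overlap (18.7%), 10 above (12.4%) and 4 below (6.23%). Limma with voom weights, which tested the 47 of them with whole recovered reads, called 2 as lower, among them Isyna1. The median log2 fold change of the 49 was 0.02, beside 0.03 over all tested genes.

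**Figure D4:**
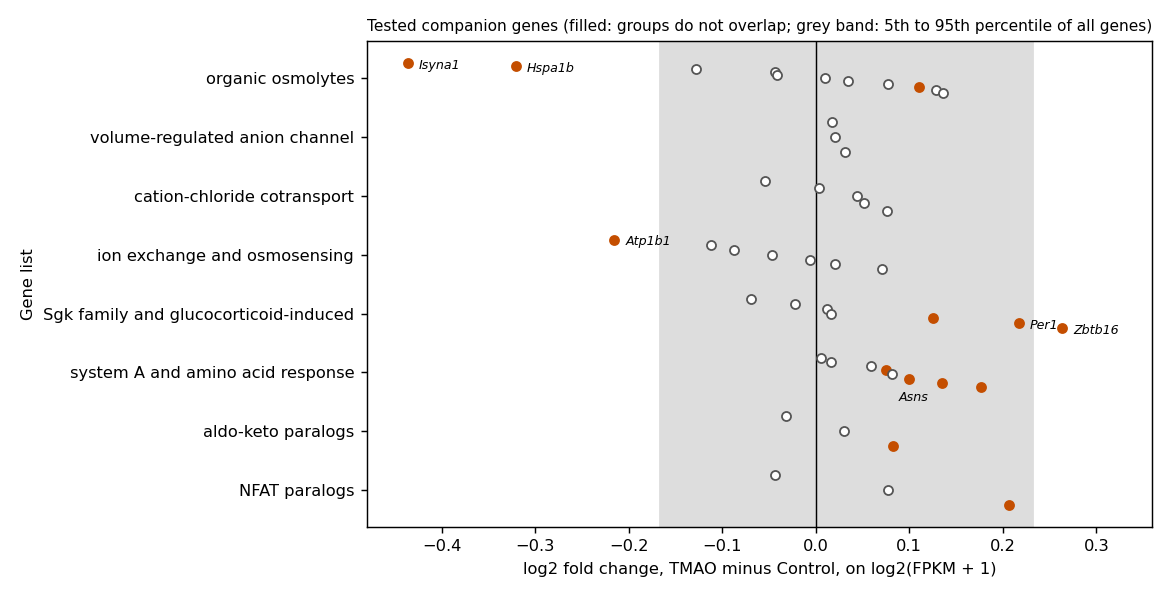
Log2 fold change on log2(FPKM + 1) (horizontal axis) of the tested companion genes by list, without those not reported here, filled orange where the 3 TMAO and 3 Control libraries do not overlap and open where they do, over the 5th to 95th percentile of all tested genes in grey. Isyna1 at -0.44 and Hspa1b at -0.32 lie farthest to the left and Zbtb16 at 0.26 farthest to the right.

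In level the 10 genes ran from abundant to barely read. By mean FPKM over 6 libraries the order was Sgk1 (89.7), Aqp1 (58.1), Akr1b3 (22.2), Slc38a2 (21.3), Slc5a3 (16.8), Slc6a6 (6.76), Nfat5 (6.19), Lrrc8a (1.57), Slc12a2 (1.14) and Slc6a12 (0.156). Neighbours in this order had separate ranges except Akr1b3 with Slc38a2 and Slc6a6 with Nfat5. The order depends on the length that FPKM is divided by. Rescaled to the longest protein-coding transcript, Akr1b3 (134) stood above Aqp1 (58.1), and Slc12a2 (1.91) stood above Lrrc8a (1.57). The ranges of Akr1b3 and Sgk1 then overlapped, as did those of Slc12a2 and Lrrc8a. Sgk1 exceeded 97.5% of all listed genes and Slc6a12 exceeded 40.5%.

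**Figure D5:**
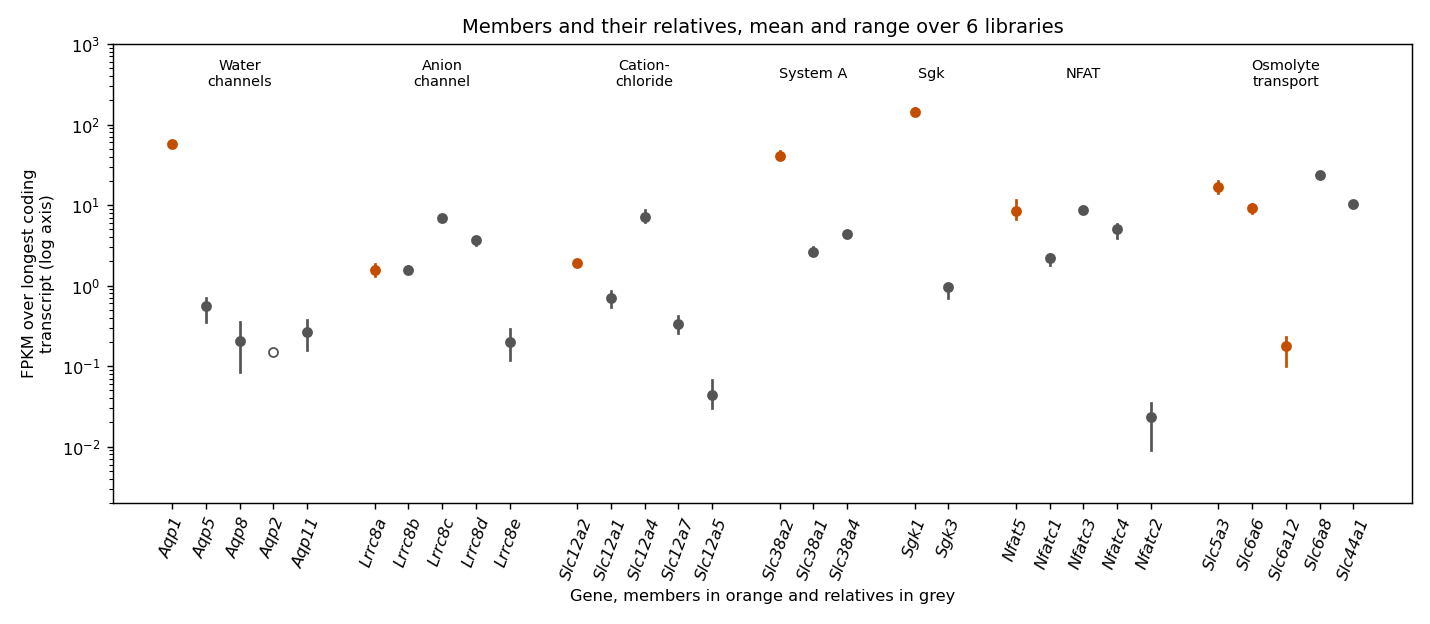
Level of members (orange) and some of their relatives (grey) as FPKM rescaled to the longest protein-coding transcript (vertical log axis), with the mean as a point and the lowest to highest of the 6 libraries as a line; the open point, Aqp2, was at 0 in 1 library. Aqp1 and Sgk1, at 58.1 and 142, stand far above the relatives plotted beside them, while Lrrc8c at 6.87 and Slc12a4 at 7.10 stand above Lrrc8a and Slc12a2.

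Libraries of a group differed in the same way for most members. TMAO 1 was the highest TMAO library for 9 of the 10 genes, all but Akr1b3, and for 50.7% of all tested genes. TMAO 2 was the lowest for 7 of the 10 and for 45.9% of all tested genes. Control 2 was the highest Control library for 8 of the 10 and for 41.7% of all tested genes. The median-ratio size factors ran from 0.983 to 1.034, with TMAO 1 highest.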

How the data were processed

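Stranded mRNA libraries were made from total RNA, per the labels' protocols. The authors deposited FPKM, with 1 table for each of the 6 libraries; in Control 1 the column is headed PKM and was read as FPKM. The submitters' processing notes list Trimmomatic, HISAT2, Cufflinks, HTSeq and mm10; the annotation release and strand setting are unknown here. With exon lengths from GENCODE M21, on the same build, the values of 25499 genes (98.5% of those annotated) came out as whole reads within 0.01, which gave the library totals.

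The test was limma 3.58.1 (R 4.3.3; trended, robust) on log2(FPKM + 1), two-sided, for genes reaching 1 FPKM in 3 or more libraries, with Benjamini-Hochberg adjustment over all 11062. This scale understates changes of low genes. Slc6a12 and ratios had exact permutation tests. The fit was tested on simulated data. No library repeated another (chi-square over degrees of freedom 2.77 to 6.41 within groups).

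The members and lists were chosen with earlier results of these data known. The text names all 10 members and, of each companion list, genes past the threshold, up to 4 with the highest mean and the 2 with the smallest p, and markers with means of at least 1 FPKM. Outside this rule, Nfatc2, Sgk2, Sgk3, Slc38a1, Slc38a4, Hspa1a, Lrrc8e, Slc12a4, Trpv4, Aqp2, Mrps6, Gm28035, Xist, Meg3, Kcnq1ot1 and further markers were added after their values were seen. Of 80 companion genes 74 matched by symbol; a few of them are not reported here. Other scalings, filters, a pseudocount of 0.1, variance models, voom, the replicate block and omission of each library were tried; removal of length and GC trends was added after seeing the data. Tables and figures were made with Python 3.11.15 and matplotlib 3.10.9.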

Additional observations from a re-analysis of the deposited data

How the results depend on the processing

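No member passed in any of 16 alternatives, and 7 of the 9 tested members kept the sign of their log2 fold change in all of them. Lrrc8a had 0.0247 without Control replicate 3 and 9.6e-04 without TMAO replicate 2 (-0.12 to 0.0247 with a library left out). Slc12a2 had -0.0366 under quantile normalization, -0.0101 without Control replicate 3 and -0.0176 without TMAO replicate 1 (-0.0176 to 0.0435 with a library left out). The cause was not tested. The 20 genes past the threshold over the whole table became 0 with no filter, 68 with a mean of at least 50 reads, 91 with voom, 45 with length and GC trends removed, and 11 to 58 with a library left out. The 0 companion genes became 1 with median-ratio size factors and 2 with a mean of at least 50 reads, with voom and with length and GC trends removed, and stayed 0 with each library left out. With group means removed, same-numbered libraries had correlations of -0.09, -0.10 and 0.06, and differently numbered ones -0.06 to 0.14. With 3 libraries a group these values cannot show whether the numbers pair the samples. The fit with the replicate block gave 22 genes (12 higher, 10 lower), 0 members and 0 companion genes, and not every sample correlated best with its own number. The difference of Slc6a12 ran from 0.00732 to 0.0507 FPKM with a library left out. Depth limits Slc6a12, with 4 to 10 reads a library, and Lrrc8a, with 86 to 134.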

Other observations

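The exons of Akr1b3 together span 8384 bases, while its longest protein-coding transcript has 1387. Rescaled to that transcript, its mean level over 6 libraries was 134 FPKM instead of 22.2 FPKM, next to Sgk1 at 142 FPKM and above Akr1b8 at 109.7 FPKM. Its share of the summed level of 4 aldo-keto reductases in Control was 8.55% by the deposited FPKM and 25.8% by transcript length. The same rescaling moved Slc38a2 from 21.3 to 40.5 FPKM and Lrrc8d from 1.15 to 3.67 FPKM, and left Aqp1 at 58.1 FPKM and Lrrc8a at 1.57 FPKM.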
